A study of Mus musculus with 6 samples.

Results

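The major urinary protein (Mup) genes Mup1, Mup2, Mup3, Mup7, Mup10, Mup11, Mup12, Mup17, Mup20 and Mup21 were examined in mouse liver. They are the 10 genes of a fixed list of symbols, out of 55385 genes in the count table and out of 49 genes there with a Mup symbol. Livers came from wild-type C57BL/6 male mice that entered the study at 6 to 8 weeks of age. All of them, the controls included, were fed a high-fat diet (HFD) for 10 weeks, underwent either vertical sleeve gastrectomy (VSG, removal of most of the stomach) or a sham operation, and stayed on HFD for 12 more weeks. Poly(A) RNA was sequenced from 3 Sham livers and 3 VSG livers, called Sham 1 to 3 and VSG 4 to 6 after their sample names. No lean mice and no unoperated mice entered this comparison, and the samples are whole liver, so fewer cells of a type and less RNA per cell cannot be told apart.

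Major urinary proteins are small secreted lipocalins, barrel-shaped proteins that hold a hydrophobic ligand in a central pocket. The mouse liver makes most of them, releases them into the blood and loses them through the kidney into the urine, where they carry volatile pheromones and act as signals themselves. Males make far more than females, because pulsatile growth hormone (GH), acting through its receptor, the kinase Jak2 and the transcription factor Stat5b, drives many of the genes in hepatocytes, and glucocorticoids, androgens and thyroid hormone add to this. The best known member is Mup20, also called darcin, the male pheromone protein that attracts females. Mup1 has been described as a secreted regulator of glucose and lipid metabolism.

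The family forms a cluster on chromosome 4 (GRCm38). Of the 49 Mup genes of the annotation, 22 protein-coding genes and 27 pseudogenes, 48 lie there between positions 59956804 and 62150863, and the pseudogene Mup-ps22 lies on chromosome 11. The 10 members span 2.08 Mb of the cluster and are all transcribed from the minus strand. Mup7 is the first of them (chr4:60066469-60070475), followed by Mup2 (chr4:60135932-60154289), Mup1 (chr4:60498012-60501960), Mup10 (chr4:60578260-60582199), Mup11 (chr4:60658466-60662411), Mup12 (chr4:60737383-60741326) and Mup17 (chr4:61591929-61595871). Mup20 (chr4:62050234-62054158), Mup3 (chr4:62083476-62087342) and Mup21 (chr4:62147932-62150863) stand at the far end.

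The members fall into sequence classes that matter for every value that follows. Mup1, Mup2, Mup7, Mup10, Mup11, Mup12 and Mup17, here called the 7 central copies, share 98.7% to 99.8% of their aligned coding bases in all 21 pairs. Mup20 shares 90.6% to 91.5% with them, and Mup3 and Mup21 share 84.0% to 85.1%. Mup3 and Mup21 share 96.3% with each other. The same 60 coding bases of 6 members show these classes, with capitals at each base that differs from the commonest base among the 10 members. Bases 212 to 271 of the coding sequence are shown for Mup7 and Mup10, bases 215 to 274 for Mup11, Mup20 and Mup21, and bases 224 to 283 for Mup3.

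Mup10: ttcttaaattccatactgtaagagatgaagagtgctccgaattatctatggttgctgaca
Mup11: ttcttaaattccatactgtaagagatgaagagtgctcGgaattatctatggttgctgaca
Mup7: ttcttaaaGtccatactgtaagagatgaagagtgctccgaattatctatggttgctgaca
Mup20: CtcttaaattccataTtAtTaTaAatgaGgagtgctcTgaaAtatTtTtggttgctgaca
Mup3: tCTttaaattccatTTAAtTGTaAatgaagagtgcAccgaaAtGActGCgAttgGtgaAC
Mup21: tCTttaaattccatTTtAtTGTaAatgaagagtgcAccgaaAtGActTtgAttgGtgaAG

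Mup7 and Mup11 differ from Mup10 by 1 base each in this stretch, Mup20 by 11, Mup21 by 18 and Mup3 by 20. A short read from a central copy can therefore fit several genes. Of all 50-base windows along the exons of Mup7, 13.3% occurred in no other annotated gene, against 22.2% for Mup11, 49.5% for Mup20, 80.7% for Mup21 and 86.7% for Mup3. With 100-base windows the values were 23.9% for Mup7, 29.4% for Mup11 and 97.8% for Mup3. How reads that fit several genes were counted is not given in the sources used here, and neither is the read length. Counts of single central copies are thus uncertain, and their levels against Mup3 are too, while Mup3 and Mup21 are mostly distinct.

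**Figure D1:**
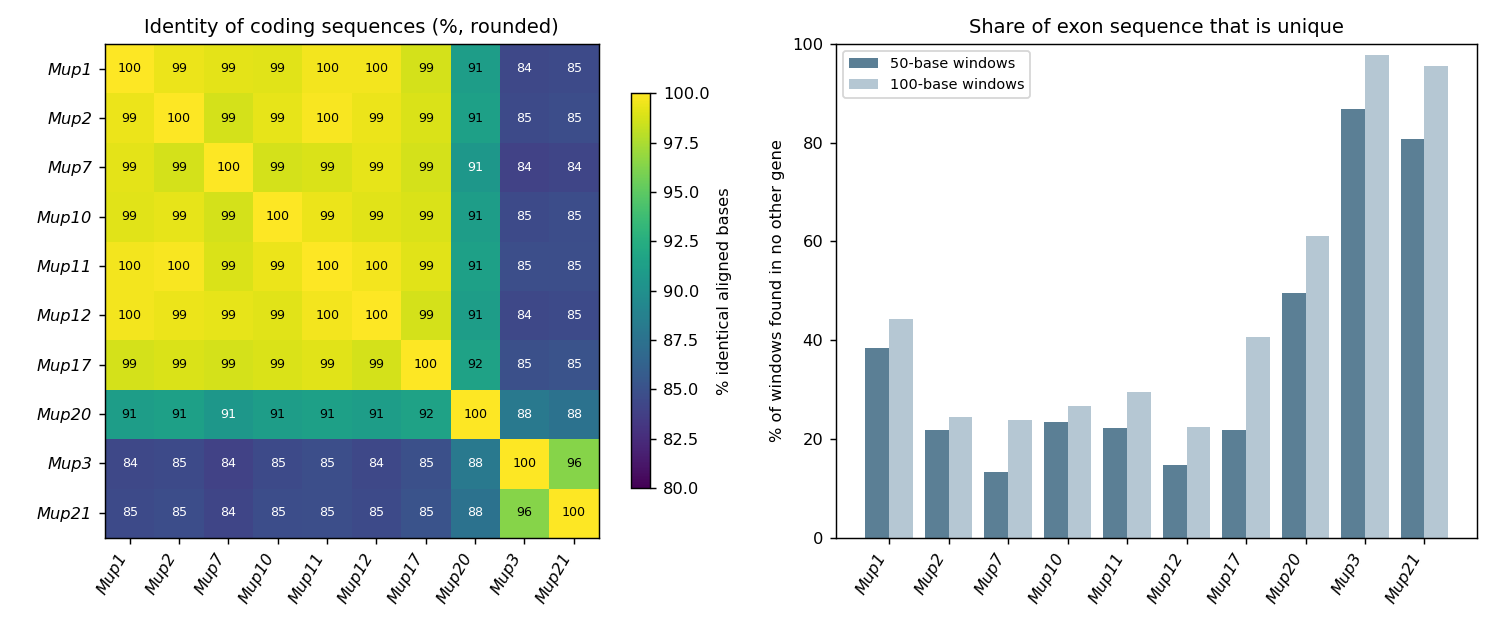
Left, identity between the coding sequences of each pair of members, in percent of aligned bases. Right, percent of 50-base (dark) and 100-base (light) exon windows of each member found in no other annotated gene. The 7 central copies form a block at 98.7% to 99.8% identity, and Mup3 and Mup21 are the members with the most unique sequence.

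Mup transcripts were a visible part of the liver RNA in both groups. Total counts ran from 22804397 to 24191778 per library. The 10 members together held 0.238%, 0.383% and 0.244% of all counts in Sham 1, 2 and 3 and 0.0564%, 0.461% and 0.234% in VSG 4, 5 and 6. The VSG libraries thus held both the lowest and the highest sum, and the groups overlapped (0.288% ± 0.0816 in Sham and 0.250% ± 0.203 in VSG livers, SD, n = 3). The other 39 Mup genes added little. With them included the share was 0.0578% to 0.472%.

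Mup3 and Mup20 carried most of this signal. Compared per length, as FPKM (counts per kilobase of exon, scaled to library size), Mup3 had the highest mean level in Sham livers (1786 ± 1225 FPKM, SD, n = 3), followed by Mup20 (934 ± 230.2), Mup21 (22.9 ± 12.3), Mup17 (17.4 ± 17.7), Mup11 (7.89 ± 10.5), Mup7 (2.52 ± 3.68), Mup2 (1.14 ± 0.603), Mup12 (1.03 ± 1.33) and Mup1 (0.209 ± 0.219). Among neighbours in this order, the 3 Sham values overlapped in each pair except Mup20 and Mup21. In VSG livers Mup3 (1495 ± 1147 FPKM) and Mup20 (385 ± 306) led again, but Mup7 (316 ± 263) and Mup11 (176 ± 138) came next, ahead of Mup17 (29.3 ± 34.5) and Mup21 (17.6 ± 8.26). All these VSG neighbours overlapped. Mup10 had at most 1 count in any library, under the floor of 3 counts that serves here as the limit of detection. Of its 50-base windows, 23.5% occurred in no other annotated gene. Reads of Mup10 may thus have been left out or counted elsewhere, and low counts do not show that it is not expressed.

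The question put to the counts was which Mup genes differ between VSG and Sham livers. Of the 10 members, 9 passed the filter on low counts and were tested with edgeR's quasi-likelihood test, with p-values adjusted over all 14454 genes tested. Only Mup7 had an adjusted p under 0.05, and it was higher in VSG livers. All 3 VSG libraries but 2 of the 3 Sham libraries of Mup7 were over the filter on low counts, so the filter was met in full only in the group where it is high. Over all genes tested 14.7% passed the same threshold (6.79% higher and 7.87% lower), so 1 of 9 members is near the background and is no result about the family. The log2 fold change was positive in 5 members and negative in 4, with a median of 0.76 against 0.03 over all genes tested. This median was -0.59 without VSG 5, -0.19 with at least 10 counts required in every library and 2.01 without Sham 2, so it has no stable sign. Of the 9 members, 2 had VSG and Sham libraries that did not overlap, where 39.7% of all genes tested did.

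**Figure D2:**
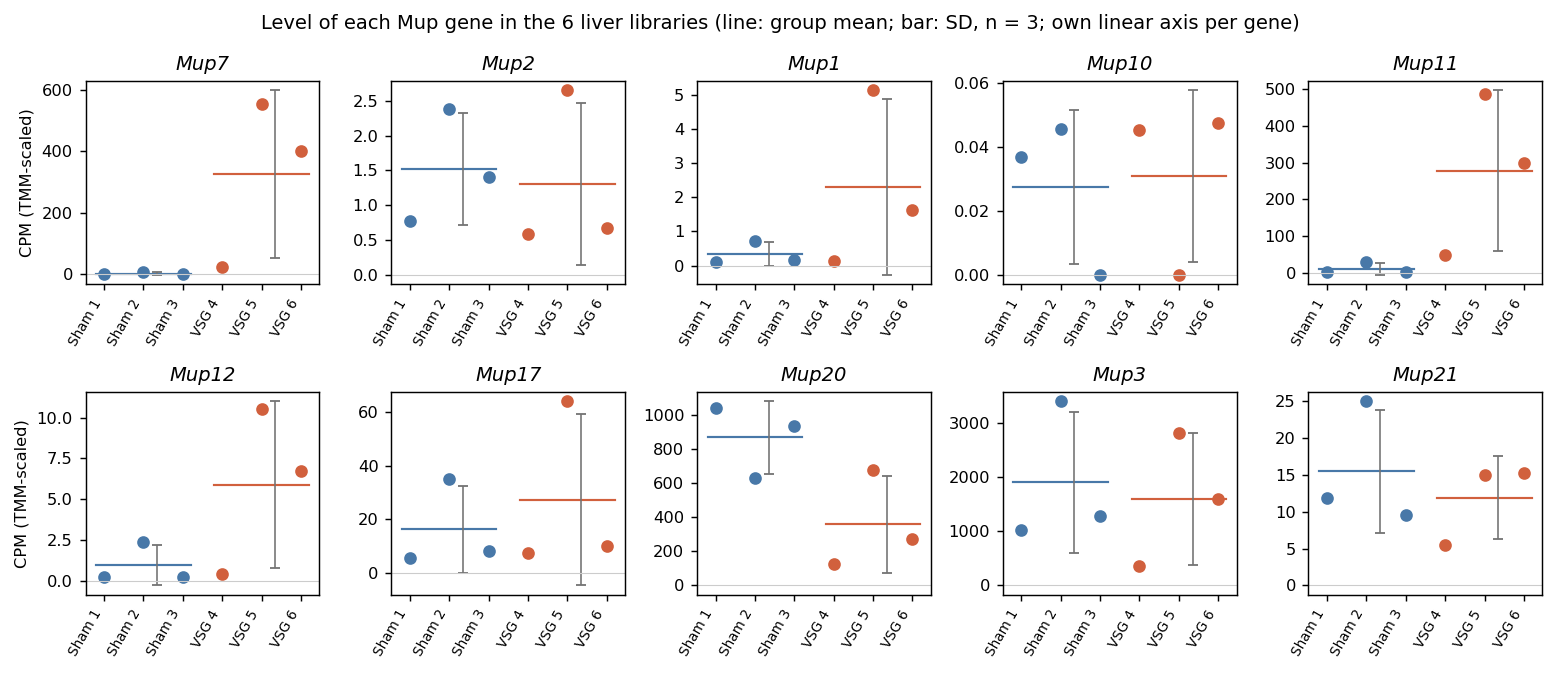
Level of each member in CPM (read counts scaled to library size with TMM factors) in the 3 Sham (blue) and 3 VSG (orange) libraries, each gene on its own linear axis. Lines are group means and bars are SD (n = 3). Mup7 and Mup11 are the members whose VSG points all lie above the Sham points, and VSG 4 is the lowest VSG point of every tested member. Mup10 had at most 1 count per library.

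Mup7 showed the largest log2 fold change among the tested members. Its counts were 10, 153 and 12 in Sham 1, 2 and 3 and 553, 12953 and 8374 in VSG 4, 5 and 6. In CPM (read counts scaled to a common library size with TMM factors) this was 2.605 ± 3.80 for Sham against 326 ± 272 for VSG livers (SD, n = 3). All 3 VSG libraries lay above all 3 Sham libraries, but VSG 4, at 25.0 CPM, stood much closer to Sham 2, at 6.99 CPM, than to the other VSG libraries. By edgeR the log2 fold change came to 7.01 (SE 1.61) at an adjusted p of 0.0346. Ranked by count among all genes of a library, Mup7 stood at position 14568, 8829 and 13994 in Sham and at 5049, 190 and 263 in VSG 4, 5 and 6. The call was lost without Sham 1 (adjusted p 0.0808), Sham 3 (0.133) or VSG 6 (0.0991) and under limma-voom (0.0631), and it was kept with at least 10 counts required in every library (0.0350) and without VSG 4 (0.0259), where 7.32% of all genes passed.

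Mup11 had a similar profile over the libraries and fell just short of the threshold. It had 88, 690 and 67 counts in Sham libraries against 1105, 11342 and 6248 in VSG 4, 5 and 6. The groups did not overlap, and Sham 2 and VSG 4 were the libraries that came nearest to each other. Means were 12.4 ± 16.5 CPM for Sham against 278 ± 218 CPM for VSG livers. By edgeR the log2 fold change came to 4.49 (SE 1.27) at an adjusted p of 0.0595. It passed the threshold in 7 of 15 alternatives, among them DESeq2 (adjusted p 0.00426, where 22.7% of all genes passed) and the removal of Sham 2 (0.0378). Given the share of exon sequence that Mup11 and Mup7 hold in common with other copies, the 2 genes may share reads and are not independent observations.

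The remaining central copies were counted at low levels. Mup12, whose exons share 81.5% of their 50-base windows with Mup1, had 6, 52 and 7 counts in Sham and 9, 247 and 141 in VSG libraries. Mup1 had 3, 16 and 4 counts in Sham and 3, 120 and 34 in VSG libraries. In both genes VSG 5 and VSG 6 exceeded every Sham library while VSG 4 lay among them, and neither passed the test (adjusted p 0.179 for Mup12 and 0.152 for Mup1 by edgeR). Mup17 had 143, 766 and 216 counts in Sham and 164, 1500 and 211 in VSG libraries, with only VSG 5 above Sham 2 (log2 fold change 0.76, SE 1.005, adjusted p 0.617). Mup2 had 21, 52 and 37 counts in Sham and 13, 62 and 14 in VSG libraries, and its groups overlapped (log2 fold change -0.20, SE 0.679, adjusted p 0.853).

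The divergent members gave a different picture. Mup20, darcin, had 28091, 13728 and 24623 counts in Sham 1, 2 and 3 and 2751, 15759 and 5753 in VSG 4, 5 and 6. VSG 4 and VSG 6 lay below every Sham library, but VSG 5 exceeded Sham 2. Means were 867 ± 214 CPM for Sham against 358 ± 284 CPM for VSG livers, with a log2 fold change of -1.28 (SE 0.577) at an adjusted p of 0.171 by edgeR. The difference did not pass the test with all libraries. Without VSG 5 the log2 fold change was -2.14 with an adjusted p of 0.0238, so the call depends on that library.

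Mup3, the most abundant member, had 27750, 74652 and 33840 counts in Sham against 8137, 65948 and 33618 in VSG libraries. Sham 2 and VSG 5 were nearly as high as each other, Sham 1, Sham 3 and VSG 6 lay together, and VSG 4 stood apart below. By edgeR the log2 fold change came to -0.26 (SE 0.754) at an adjusted p of 0.831. Its sign turned to 0.46 without Sham 2 and to 0.21 without VSG 4. Mup21, the closest relative of Mup3, had 323, 548 and 250 counts in Sham and 121, 352 and 320 in VSG libraries, again with Sham 2 highest and VSG 4 lowest of all 6 (log2 fold change -0.37, SE 0.489, adjusted p 0.614). With a standard error this large, neither test shows that Mup3 or Mup21 is equal in the groups.

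**Figure D3:**
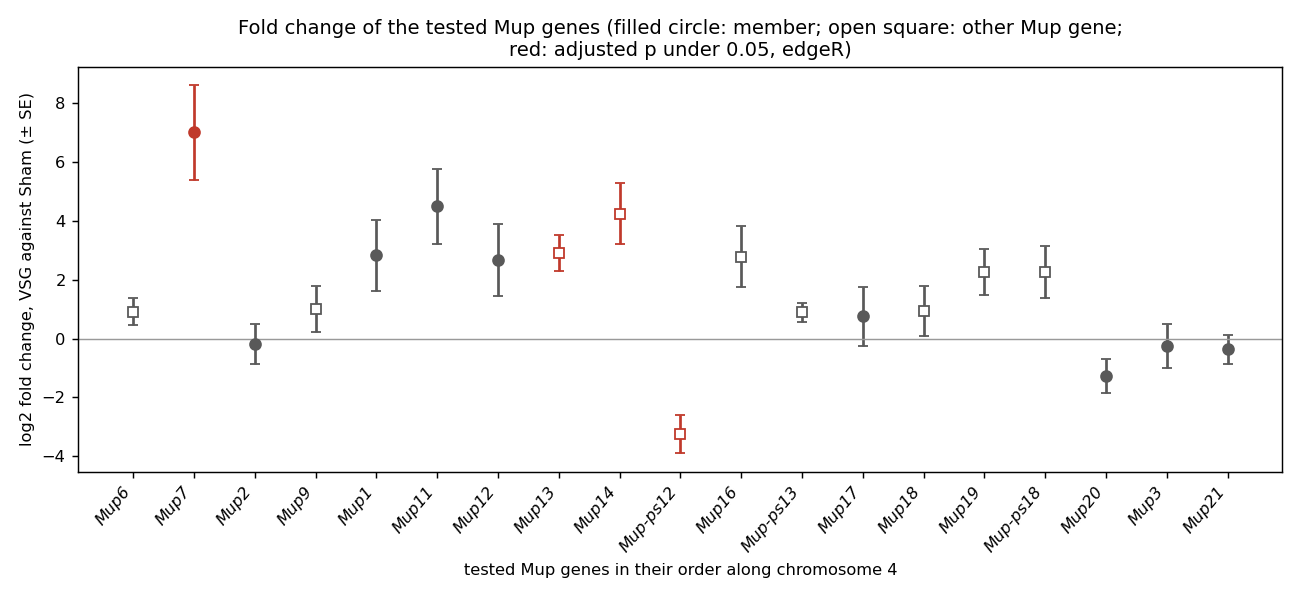
Log2 fold change (VSG against Sham, ± SE) of the 9 tested members (filled circles) and 10 other tested Mup genes (open squares) in their order along chromosome 4, with adjusted p under 0.05 in red. Mup7, at 7.01, is the only member in red, and Mup20, Mup3 and Mup21 at the end of the cluster lie at or below 0 with errors that are wide.

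The share of the central copies within the family did not overlap between the groups, whereas the family sum did. The 7 central copies held 0.482%, 1.91% and 0.581% of the members' counts in Sham 1, 2 and 3 and 14.4%, 24.2% and 27.5% in VSG 4, 5 and 6. All 3 VSG values lay above all 3 Sham values, VSG 4 included. Mup7 and Mup11 together made up 0.174%, 0.930% and 0.134% in Sham and 12.9%, 22.4% and 26.7% in VSG libraries, most of the central share in the VSG group only. In Sham 1 and Sham 3 Mup17 alone, at 0.253% and 0.366%, held more than the pair. If each read that fits several copies was counted for a single copy, the central sum does not depend on the split among the 7. If such reads were left out or counted more than once, the sum and its size against Mup3 depend on that. Reads shared with other Mup genes bear on it in either case. In CPM the central sum was 10.0, 79.0 and 13.0 in Sham and 83.6, 1121 and 717 in VSG libraries, so that on this scale VSG 4 barely exceeded Sham 2. A sum over chosen members was given no test.

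Mup20 took 49.8%, 15.1% and 41.7% of the members' counts in Sham 1, 2 and 3 and 21.4%, 14.6% and 10.5% in VSG libraries. Here Sham 2 fell within the VSG range. Mup3 took 49.2%, 82.3% and 57.3% in Sham and 63.3%, 60.9% and 61.4% in VSG libraries, so that the VSG shares were close to each other and lay inside the wide Sham range. Per length, the ratio of Mup3 to Mup20 FPKM was 0.858, 4.73 and 1.19 in Sham and 2.57, 3.64 and 5.08 in VSG libraries, and the groups overlapped.

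**Figure D4:**
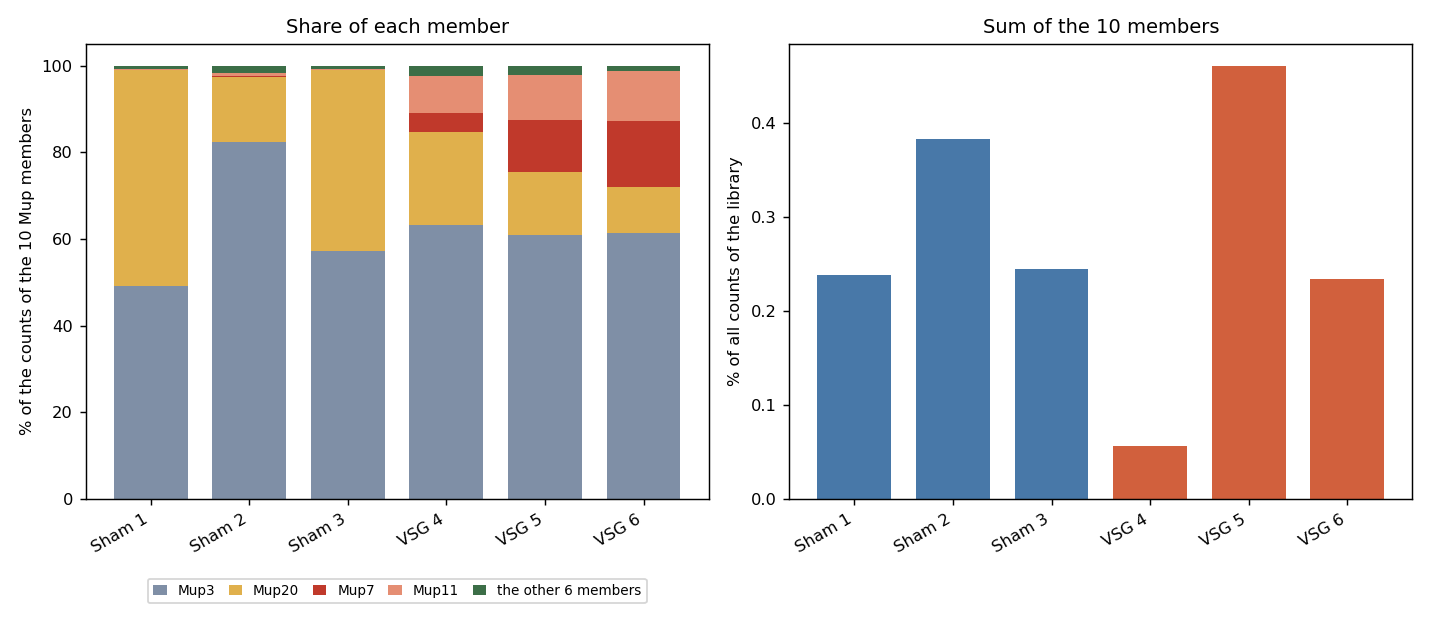
Left, percent of the 10 members' counts held by Mup3, Mup20, Mup7, Mup11 and the other 6 members in each library. Right, the summed counts of the 10 members as percent of all counts. Mup7 and Mup11 together take 12.9% to 26.7% in VSG libraries against at most 0.930% in Sham libraries, while the sums on the right overlap.

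Within each group the members varied together. Among the Sham libraries Sham 2 was the highest in 8 of the 9 tested members, and in Mup20 it was the lowest. Among the VSG libraries VSG 4 was the lowest in all 9, and VSG 5 was the highest in 8 of them, with Mup21 slightly higher in VSG 6. The highest library exceeded the lowest of its group by 1.65-fold (Mup20) to 18.9-fold (Mup7) in Sham and by 2.79-fold (Mup21) to 25.9-fold (Mup12) in VSG livers, leaving out Mup1, whose lowest libraries were at the floor. In Mup2, Mup3, Mup12, Mup17 and Mup21 this spread within both groups exceeded the ratio of the group means.

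VSG 4 also had the highest summed level of neutrophil, Kupffer cell and acute phase genes, with VSG 6 next in each and VSG 5 the lowest VSG library. The 15 genes of an acute phase list, made by hepatocytes in inflammation, were all found and tested, and all 15 were higher in VSG livers, with a median log2 fold change of 3.10 against 0.03 over all genes tested. In fits whose share of all genes passing is not given here, this count was 9 without Sham 2, 6 without VSG 6 and 2 without Sham 3. The median of these genes was still 2.94 without Sham 3. Their summed level was 16901, 16004 and 15182 CPM in Sham against 121116, 60655 and 102251 CPM in VSG 4, 5 and 6. All 9 neutrophil markers were higher too, at a summed 14.3, 2.604 and 4.41 CPM in Sham and 1820, 147 and 839 CPM in VSG libraries. Within the VSG group every neutrophil marker was highest in VSG 4 and lowest in VSG 5, the opposite order to the Mup sum, and Sham 2 had the lowest neutrophil sum and the highest Mup sum of its group. The 7 Kupffer cell markers, of liver macrophages, summed to 325 to 682 CPM in Sham and 709.8 to 2118 CPM in VSG libraries, and 4 of them were higher in VSG livers. The 6 stellate cell markers ran the other way, at a summed 845, 589 and 890 CPM in Sham and 280.4, 550 and 331 CPM in VSG libraries, with VSG 4 lowest in 5 of 6 and 1 of them lower in VSG livers. Endothelial markers (265 to 316 CPM in Sham and 279 to 345 CPM in VSG libraries) and bile duct markers (57.7 to 253 and 73.4 to 199.7 CPM) overlapped between the groups. The share of mitochondrial counts was 5.79%, 6.58% and 5.59% in Sham and 4.14%, 4.94% and 5.01% in VSG libraries, highest in Sham 2 and lowest in VSG 4. No list had a marker at 0 in all libraries. The part of these cells, of inflammation and of the mitochondrial share in the Mup values was not tested.

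Markers of hepatocytes, the cells that express Mup genes, did not follow the Mup levels to the same extent. The 7 of 8 hepatocyte markers found in the table summed to 80414 to 123567 CPM in Sham and 83445 to 112239 CPM in VSG libraries, with Sham 2 highest and none of the 7 at 0. VSG 4 was the lowest VSG library, as for the Mup sum, but by far less. Of the 7, 1 was higher in VSG livers and none was lower by edgeR.

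**Figure D5:**
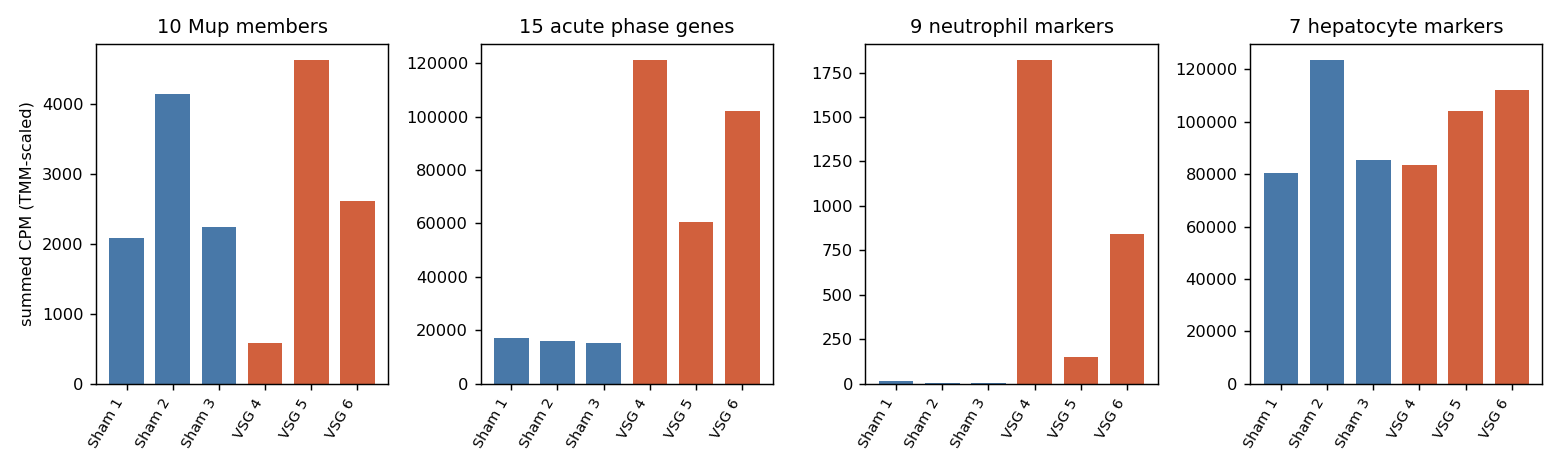
Summed CPM of the 10 Mup members, 15 acute phase genes, 9 neutrophil markers and 7 hepatocyte markers in each Sham (blue) and VSG (orange) library, each panel on its own linear axis from 0. VSG 4 has the lowest Mup sum, at 582 CPM, and the highest neutrophil and acute phase sums, at 1820 and 121116 CPM.

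Other genes of the Mup cluster gave values on both sides. Of the 39 other Mup genes, 15 had at least 10 counts in some library and 10 were tested. Of those 10, 2 were higher and 1 was lower in VSG livers (median log2 fold change 1.63, and 0.84 without Sham 1). Among all genes tested, 14.7% passed the same threshold (6.79% higher and 7.87% lower), and the count was not tested against that share. Mup14, which shares 59.5% of the 50-base windows of Mup11, was at 1.03, 2.97 and 0.798 CPM in Sham and 3.89, 61.4 and 23.4 CPM in VSG libraries, the library order of Mup11 (log2 fold change 4.24, SE 1.04, adjusted p 0.0409 by edgeR). When single libraries were left out, the call of Mup14 was kept only without VSG 4, with adjusted p-values of 0.0519 to 0.155 in the other 5 fits. Mup13 was also higher, with 1, 5 and 3 counts in Sham and 12, 31 and 20 in VSG libraries, at 0.0369, 0.228 and 0.114 CPM in Sham and 0.543, 1.33 and 0.954 CPM in VSG libraries (adjusted p 0.0286). The pseudogene Mup-ps12 was lower, with 20, 37 and 30 counts in Sham and 1, 6 and 1 in VSG libraries, at 0.739, 1.69 and 1.14 CPM in Sham and 0.0452, 0.256 and 0.0477 CPM in VSG libraries (adjusted p 0.0256). When single libraries were left out, the call of Mup-ps12 was kept only without Sham 1 or without VSG 5. The call of Mup13 was lost without Sham 1, Sham 3 or VSG 6. Mup13 had 0 Sham libraries and Mup-ps12 had 0 VSG libraries over the filter on low counts. Mup16 and Mup19 had positive log2 fold changes of 2.79 and 2.27 that did not pass (adjusted p 0.114 and 0.0961). Mup13, Mup18, Mup19 and Mup-ps18 met that filter in full only in the VSG group and Mup-ps12 only in the Sham group, where each is high, so being tested and differing are not independent for them and the median supports no direction. By edgeR 1 of these genes passed without Sham 1, and 0 passed without Sham 3 or without VSG 6.

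The pathway that is best known to drive Mup transcription was examined through the mRNA levels of its genes only. Hormone levels, proteins and kinase activity were not measured in these samples, so the values do not show whether the activity of the pathway differed. Of 13 genes of GH receptor signalling, all tested, 2 were higher and 1 was lower in VSG livers. That is 23.1% of the list, where 14.7% of all genes tested passed (6.79% higher and 7.87% lower), and no result about the pathway. The median log2 fold change was 0.11. It was -0.034 with library totals, 0.33 without Sham 2 and 0.32 without VSG 4. The receptor Ghr was at 471, 767 and 552 CPM in Sham and 245, 498 and 466 CPM in VSG libraries and did not pass (log2 fold change -0.57, SE 0.313, adjusted p 0.243 by edgeR). VSG 4 was again lowest and Sham 2 highest. Jak2 (log2 fold change 0.11, adjusted p 0.502), Stat5b (-0.09, adjusted p 0.509) and Stat5a (-0.34, adjusted p 0.204) did not pass, with Stat5b between 57.2 and 64.1 CPM in all 6 libraries.

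Among GH targets, Igf1, the growth factor that GH induces in the liver, was at 539, 668 and 445 CPM in Sham and 629.9, 856 and 782 CPM in VSG libraries (log2 fold change 0.46, adjusted p 0.172). Socs2 and Cish, feedback inhibitors induced by Stat5, were high in VSG 4 and VSG 5 and at the Sham level in VSG 6. Socs2 was at 4.58, 5.62 and 3.65 CPM in Sham and 28.3, 22.4 and 5.58 CPM in VSG libraries (adjusted p 0.0540), and Cish was at 5.91, 5.16 and 3.42 CPM in Sham and 42.7, 19.8 and 5.25 CPM in VSG libraries (adjusted p 0.0735). Neither passed by edgeR, whereas both passed by DESeq2 (adjusted p 0.00162 and 0.0036), and neither had the library order of Mup3 or Mup7. Igfals (log2 fold change 0.05, adjusted p 0.939) and Igfbp3 (-0.86, adjusted p 0.167), also of this list, did not pass by edgeR. Igfbp3 was at 32.4, 56.8 and 29.2 CPM in Sham and 12.7, 32.0 and 20.4 CPM in VSG libraries. In both genes Sham 2 was the highest Sham library, VSG 4 the lowest and VSG 5 the highest VSG library, as in Mup3. Stat3, the transcription factor of the interleukin 6 response, was higher after VSG (log2 fold change 1.02, SE 0.124, adjusted p 0.0081), as was Socs3, the inhibitor it induces (log2 fold change 2.44, SE 0.328, adjusted p 0.0104). Both calls were lost without Sham 3.

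Of 15 transcription factors of sex-biased liver or Mup gene expression, 3 were higher in VSG livers and none was lower by edgeR, with a median log2 fold change of 0.18 (0.07 without VSG 5). Over all genes tested 14.7% passed (6.79% higher), so 3 of 15 (20.0%) is near the background and is no result about these factors. The 3 were Onecut1, a hepatocyte factor that GH regulates (log2 fold change 2.40, adjusted p 0.0341), Foxa3, a forkhead factor of liver genes (0.67, adjusted p 0.0230), and Esr1, the estrogen receptor (0.97, adjusted p 0.0141). Only 1 of the 15 passed without VSG 4, Sham 1, Sham 3 or VSG 6. Bcl6, a repressor of female-biased genes, and Zhx2, a known regulator of Mup genes, did not pass (adjusted p 0.552 and 0.317).

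Genes that share the male bias of the Mup family were mixed as well. Over all genes tested 14.7% passed (6.79% higher and 7.87% lower). Near that share, 3 of 15 male-biased liver genes (20.0%) were higher in VSG livers (C6, Gstp1 and Serpina1e), and none was lower by edgeR. The median log2 fold change of the 15 was 1.08 (0.46 without VSG 5). In 7 of the 12 others VSG 5 and VSG 6 exceeded every Sham library, as in Mup1 and Mup12, without passing by edgeR (Cyp2d9, Cyp4a12b, Cyp7b1, Hsd3b5, Selenbp2, Slco1a1 and Susd4), and VSG 4 lay within the Sham range in 6 of these 7. Among all 12336 genes tested and not called, 20.5% had VSG 5 and VSG 6 above every Sham library. The pattern was picked after the values were seen, so the count is a description. The steroid-metabolising Hsd3b5 was at 0.0739, 0.685 and 0.0380 CPM in Sham and 0.0905, 38.6 and 35.3 CPM in VSG libraries (adjusted p 0.0539 by edgeR and 0.00446 by DESeq2), and the organic anion transporter Slco1a1 was at 2.70, 54.7 and 2.28 CPM in Sham and 6.24, 197 and 162 CPM in VSG libraries (adjusted p 0.266 by edgeR). Of the other uncalled male-biased genes, Cyp4a12a, Ugt2b1 and Cyp2u1 had negative log2 fold changes (-1.25, -0.56 and -0.03). Ugt2b38 and Elovl3 had positive ones (1.62 and 0.13). The names of all 12 uncalled genes were chosen after their values were seen. Without VSG 4, where 7.32% of all genes passed, 5 of the 15 male-biased genes passed, and without Sham 3 or VSG 6 only 1 did.

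Of 20 female-biased liver genes, 9 were tested, and 7 of these were lower in VSG livers (Cyp2a4, Cyp2b9, Cyp2b13, Fmo2, Acot3, Hao2 and Abcd2). The median log2 fold change of the 9 was -5.64, or -5.13 with the 3 genes whose VSG libraries were all at or under 3 counts set to that floor. Those 3, Cyp2a4, Cyp2b13 and Hao2, passed the filter on low counts only through the Sham group, so the count and the median rest in part on that filter and give no support to a direction. The other 4 passed it in each group. Cyp2b9, a cytochrome P450, was at 73.5, 333 and 293 CPM in Sham and 3.03, 3.38 and 1.62 CPM in VSG libraries, with VSG 4 between the other VSG libraries. Without VSG 6 only 1 of the 20 passed, and without Sham 3 only 2.

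Of 13 other lipocalins, relatives of the Mup proteins by fold, 12 were found and 9 tested, and 6 of these were higher in VSG livers (Apom, Ambp, Lcn2, Orm1, Orm2 and Orm3), with a median log2 fold change of 1.29 (2.06 without Sham 2). Lcn2, Orm1 and Orm2 also belong to the acute phase list, so the lists are not independent. By edgeR the count of 6 was 3 without Sham 1, 1 without Sham 2 and 0 without Sham 3 or VSG 6. Within the VSG group Lcn2 was at 6621, 527 and 4062 CPM in VSG 4, 5 and 6, the reverse of the Mup3 order. Apom, which carries sphingosine-1-phosphate on lipoproteins, was at 72.0, 109 and 78.9 CPM in Sham and 167, 207 and 184 CPM in VSG libraries, with Sham 2 and VSG 5 highest as in Mup3. Rbp4, the retinol carrier, did not pass and was at 1027 CPM in VSG 4, the lowest of the 6 libraries (adjusted p 0.418).

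Promoter sequences were available for 7 of the 10 members (RefSeq, GRCm38.p6). The motif TTCNNNGAA, the letters bound by Stat factors, was absent from the 250 bases before the start of all 7, searched on both strands, and present in 7.02% of 32851 mouse promoters. TATATAA occurred within 300 bases around the start in 6 of the 7, Mup7 being the exception, against 3.24% of all promoters on either strand. The promoters of the members are related copies, so the 7 are not separate observations to set against the share of all promoters. For Mup2 the RefSeq start (60139856) was used, which lies away from the annotated start (60154289). A match is a description of letters, and the absence of one says only that these letters are not in this window.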

How the data were processed

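Liver poly(A) RNA of 3 Sham and 3 VSG mice was analysed from raw read counts per gene, as the authors deposited them. Per the labels and methods, strand-specific libraries were aligned to mm10 with STAR 2.6.0 and counted with featureCounts. Treatment of multi-mapping reads is not given in the sources used here. All 10 members matched GENCODE M21 by identifier, start and end, as did 54487 of 55385 genes. Counts were tested with edgeR 4.0.16 (filterByExpr with minimum count 10, TMM, glmQLFTest, two-sided, Benjamini-Hochberg over 14454 genes, threshold 0.05), after a check on simulated counts. SE is the log2 fold change over the root of F. FPKM used the deposited exon length. Floors (3 counts) cover counting error only. Replicates of a group differed beyond counting noise (chi-square per degree of freedom at least 25.2). Coding sequences were derived from GENCODE M21. Alternatives were DESeq2 1.42.0, limma 3.58.1, scaling, filters and leaving out each library.

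The members and lists were chosen with earlier results of these data known. Named genes were all members, list genes with an adjusted p under 0.05 (at most 8), any gene of GH signalling and other Mup genes with at least 10 counts. Other names (12 male-biased genes not called, Bcl6, Zhx2, Rbp4) were chosen after their values were seen. Genes withheld from this text are not reported here by name. Each list was described by its counts and median. An exact two-sided permutation test of 3 against 3 libraries has 0.1 as its smallest p and was not used.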

Additional observations from a re-analysis of the deposited data

How the results depend on the processing

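The number of members called (1) was 2 with DESeq2, limma on log2(FPKM + 1) or log2(FPKM + 0.1), library totals and no low-count filter, each time by adding Mup11, and ran from 0 to 2 when single libraries were left out. It was 0 without Sham 1, Sham 3 or VSG 6. Mup7 stayed past the threshold in 11 of 15 alternatives (log2 fold change 6.13 to 9.61) and Mup11 in 7 of 15 (3.81 to 6.58). Leaving out single libraries gave 0 to 2 calls for other Mup genes, 0 to 3 for GH signalling, 1 to 2 for transcription factors, 1 to 5 for male-biased, 1 to 8 for female-biased, 0 to 6 for other lipocalins and 2 to 15 for acute phase genes. Of all genes tested, 7.32% passed without VSG 4, against 14.7% with all libraries. That share is not given here for the other fits, so a lower count there cannot be read as particular to a list. DESeq2 gave 5 for GH signalling and 5 for male-biased genes. Log2 fold changes that turned sign when a library was left out, always without a call, ran from -1.27 (without VSG 5) to 0.26 (without Sham 2) in Mup2, -0.96 (without VSG 5) to 0.46 (without Sham 2) in Mup3, -0.89 (without VSG 5) to 2.01 (without Sham 2) in Mup17, -0.64 (without Sham 3) to 0.15 (without Sham 2) in Mup21, -0.15 to 1.73 in Mup9, -0.30 to 1.71 in Mup18 and -0.43 to 0.33 in Igfals. With library totals Jak2 was at -0.034 and Igfals at -0.0499. Library totals moved the median of all genes to -0.11. Unique windows over all members rose from 34.9% to 43.5% with 100-base windows. Of 493 values of single genes under an alternative, 390 kept direction and side of the threshold. The cause of these changes was not tested. No paired analysis was possible because the groups share no replicate number.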

Other observations

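Among 9957 genes with a mean of at least 5 CPM, those whose log2 CPM followed the summed Mup members most closely over the 6 libraries were Strbp, Notum, 1700001C19Rik, Mfn1 and Nr1d2, with Pearson's r of 0.989 to 0.994. Esyt1, Ms4a6d, Spata2 and Nfya were among the genes with the lowest r, from -0.995 to -0.987. These are the extremes of many genes over few libraries and serve as a description. Notum, a secreted inhibitor of Wnt signalling, was at 17.8, 24.4 and 17.7 CPM in Sham and 7.56, 25.3 and 20.5 CPM in VSG libraries. Ms4a6d was at 7.76, 4.57 and 7.52 CPM in Sham and 15.7, 4.15 and 6.96 CPM in VSG libraries. None of these genes passed an adjusted p of 0.05 between the groups by edgeR. The log2 fold change farthest from 0 among them was 0.43, for Ms4a6d (adjusted p 0.554).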
